A study of Rattus norvegicus with 29 samples.

Results

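The proteasome is the protease that degrades proteins tagged with ubiquitin. Its 20S core is a barrel of alpha and beta rings in which the beta subunits Psmb5, Psmb6 and Psmb7 cut the substrate, and its 19S regulatory particle, made of a base with 6 ATPases and a lid, binds, unfolds and deubiquitinates substrates before they enter. In cells exposed to interferon gamma, and in immune cells at rest, Psmb8, Psmb9 and Psmb10 take the places of the 3 constitutive catalytic subunits to form the immunoproteasome, which shapes the peptides presented on MHC class I. In hepatocytes and other cells, subunit genes are known to be raised together by the transcription factor NRF1 (gene Nfe2l1) when proteasome capacity falls short, and some of them by NRF2 (gene Nfe2l2).

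The genes described here were all transcript clusters of a rat liver array whose single annotated gene symbol begins with Psma, Psmb, Psmc, Psmd or Psme followed by a digit. The rule took 51 of the 27342 clusters, for 44 different symbols, and used no measured value. Of the 51 clusters, 15 were constitutive 20S subunits (7 alpha and 8 beta), 19 were 19S subunits (7 of ATPases, 3 of other base subunits and 9 of the lid), 3 were immunoproteasome subunits, 7 were activators that bind the core in place of the 19S particle, and 3 were chaperones of base assembly. The other 4 were Psma3l, a near copy of Psma3, Psmb11, the thymus form of the beta subunit, and Psmc3ip and Psme3ip1, which are not subunits. A symbol with several clusters (Psma6, Psmb6, Psmc4, Psmd8, Psme1, Psme2 and Psme3) is given as cluster 1 and cluster 2, in order of probe number. A further cluster shared by Psma3l and Psma3 was not a member, so Psma3 itself is not reported.

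The study gave pentamethylchromanol (PMCol), an analogue of the chromanol head of vitamin E without its long tail, to male Sprague-Dawley rats (Crl:CD) of 6 to 7 weeks by daily gavage. Vehicle animals received 1% methylcellulose in water by the same route, and no group was left undosed. The groups were 2000 mg/kg for 7 days, killed at day 8 (n = 6), with vehicle for 7 days (n = 6), and 2000 mg/kg for 28 days, killed at day 29 (n = 5), 200 mg/kg for 28 days (n = 6) and vehicle for 28 days (n = 6). RNA of the left liver lobe of each of the 29 animals went on its own Affymetrix whole-transcript array. Arrays within a group are biological replicates, per the titles of the samples.

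All values below are log2 signals that the authors deposited centred, so that each cluster has a median of 0 over the 29 arrays. A value of 0.30 thus means a signal above that cluster's own median, and levels cannot be set against each other between genes. Changes are differences of group means in log2 units, with the standard error of a limma fit to all 29 arrays. A cluster is said to have risen or fallen where limma's p, adjusted by Benjamini-Hochberg over all 27342 clusters, was under 0.05. The number of arrays limits the precision. If the authors added an offset before taking logs, which the sources used here do not give, these differences understate the change. The median of all clusters lay between -0.023 and 0.029 on every array, and no pair of arrays correlated above 0.73. All 7 hepatocyte markers measured had decimals that fit stored values of 8 or more before centring, as did 43 of the 51 proteasome clusters (84.3%), against 28.5% of all clusters. Of those hepatocyte markers 4 fell at day 8 at 2000 mg/kg (Cps1, Ttr, Serpina1 and Fgb, by 0.29, 0.22, 0.20 and 0.16) and 3 at day 29 (Tat, Cps1 and Serpina1, by 0.44, 0.39 and 0.17), changes of a size like the proteasome rises below, while Alb differed by 0.01 and -0.02. Both red cell markers measured, Hbb and Alas2, fell at day 8, by 0.94 and 0.90, and neither passed at day 29. Their mean was 0.89 in day 8 vehicle livers and -0.04 in day 8 livers given 2000 mg/kg. At day 29 it was -0.09, -0.06 and -0.09 at vehicle, 200 and 2000 mg/kg, so the day 8 vehicle livers stood apart. The part of these changes in the proteasome values was not tested. Nqo1, a target gene of NRF2 that serves as a check of dosing, rose by 2.24 ± 0.11 at day 8 and by 2.61 ± 0.11 at day 29 in livers given 2000 mg/kg, and by 1.15 ± 0.11 in livers given 200 mg/kg.

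The promoters differ in the motifs they carry, and 6 are shown here because they are examples of the 2 motifs most relevant to the classes compared below. They are RefSeq sequences on GRCr8, each from 250 bases before to 50 after the annotated start of the gene, printed 5′ to 3′ on the gene's strand. Capitals mark TGACNNNGC, the antioxidant response element bound by NRF2 and NRF1 with small Maf proteins, in Psmb5 (chr15:32047330-32047629, minus strand), Psmb2 (chr5:144254808-144255107, plus strand) and Psme4 (chr14:108706393-108706692, plus strand). They mark the core of the interferon-stimulated response element (GAAA, 2 bases of any kind, GAAA) in Psmb8 (chr20:4656982-4657281, minus strand), Psmb10 (chr19:50743243-50743542, minus strand) and Psme2 (chr15:33052702-33053001, minus strand).
Psmb5: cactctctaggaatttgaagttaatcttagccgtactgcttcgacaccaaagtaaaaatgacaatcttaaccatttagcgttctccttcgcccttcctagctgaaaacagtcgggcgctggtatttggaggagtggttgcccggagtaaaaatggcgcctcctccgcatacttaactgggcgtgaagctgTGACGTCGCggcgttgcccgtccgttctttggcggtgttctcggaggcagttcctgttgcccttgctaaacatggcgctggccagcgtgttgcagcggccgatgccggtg
Psmb2: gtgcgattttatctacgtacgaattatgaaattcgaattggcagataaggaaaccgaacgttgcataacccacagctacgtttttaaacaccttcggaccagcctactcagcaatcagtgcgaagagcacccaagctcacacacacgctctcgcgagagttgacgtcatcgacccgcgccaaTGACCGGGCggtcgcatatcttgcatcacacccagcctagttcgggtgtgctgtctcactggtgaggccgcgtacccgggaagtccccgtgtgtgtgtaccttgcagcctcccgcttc
Psme4: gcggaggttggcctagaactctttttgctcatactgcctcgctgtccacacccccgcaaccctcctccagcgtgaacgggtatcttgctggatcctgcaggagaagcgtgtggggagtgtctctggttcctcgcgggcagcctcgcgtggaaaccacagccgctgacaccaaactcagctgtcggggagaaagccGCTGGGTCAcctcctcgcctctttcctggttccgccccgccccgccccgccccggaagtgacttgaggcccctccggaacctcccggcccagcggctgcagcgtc
Psmb8: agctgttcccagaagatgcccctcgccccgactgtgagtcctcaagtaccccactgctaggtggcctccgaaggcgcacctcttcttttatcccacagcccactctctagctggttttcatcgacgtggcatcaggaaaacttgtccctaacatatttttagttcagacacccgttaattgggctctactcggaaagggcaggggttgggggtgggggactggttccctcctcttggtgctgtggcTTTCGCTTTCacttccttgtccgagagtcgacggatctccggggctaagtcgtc
Psmb10: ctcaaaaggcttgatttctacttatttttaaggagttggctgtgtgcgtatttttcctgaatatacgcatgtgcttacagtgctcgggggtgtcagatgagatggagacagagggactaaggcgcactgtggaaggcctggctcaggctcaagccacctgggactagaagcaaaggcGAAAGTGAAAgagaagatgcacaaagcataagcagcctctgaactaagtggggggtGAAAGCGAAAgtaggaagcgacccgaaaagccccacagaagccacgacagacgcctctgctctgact
Psme2: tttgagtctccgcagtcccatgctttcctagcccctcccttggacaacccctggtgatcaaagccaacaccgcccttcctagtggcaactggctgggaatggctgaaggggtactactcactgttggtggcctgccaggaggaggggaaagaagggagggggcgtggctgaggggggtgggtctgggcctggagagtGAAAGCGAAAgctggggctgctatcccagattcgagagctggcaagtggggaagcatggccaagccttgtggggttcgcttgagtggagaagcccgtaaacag

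Both strands were searched, and the matches in Psme4 and Psmb8 are on the strand opposite to the gene. Counted from the annotated start, the matches began at base -60 in Psmb5, -68 in Psmb2, -55 in Psme4, -4 in Psmb8, -73 and -17 in Psmb10 and -53 in Psme2. The match in Psmb2 shares 1 base with a CCAAT box, and TGACNNNGC and the interferon-stimulated element overlapped in none of the 6. A window was given for 38 of the 44 symbols. TGACNNNGC stood in 7 of the 38 (18.4%; Psmb2, Psmb5, Psmb6, Psmd1, Psmd3, Psmd9 and Psme4), against 12.1% of all 33469 promoters of that length. The interferon-stimulated element stood in 6 of the 38 (15.8%; Psma4, Psmb3, Psmb8, Psmb10, Psmd7 and Psme2), against 3.92% of all promoters. The window of Psmb9 held none. CCAAT stood in 20 of the 38 (52.6%), against 37.5% of all promoters. Of the 28 symbols with a window and a cluster that rose at 2000 mg/kg on at least 1 day, 5 held TGACNNNGC, as did 2 of the 10 others. These are matches of letters in a fixed window and say nothing of binding.

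At 2000 mg/kg the proteasome genes rose together and by small amounts. At day 8, 33 of the 51 clusters rose and 0 fell (64.7%), while 9.32% of all clusters rose and 9.32% fell, with rises in 19.9% of those with stored values of 8 or more. At day 29, 27 rose and 0 fell (52.9%), while 12.1% of all clusters rose and 9.55% fell, with rises in 23.8% of those with stored values of 8 or more. Among the 43 proteasome clusters in that brighter class, 31 rose at day 8 (72.1%) and 26 at day 29 (60.5%). At an unadjusted p under 0.05 no cluster was lower in 2000 mg/kg livers than in vehicle livers on either day, against 14.7% of all clusters on each day. The median difference over all 51 was 0.25 at day 8 (1.19-fold) and 0.24 at day 29 (1.18-fold), against -0.005 and 0.002 over all clusters. The differences ranged from -0.29 to 0.73 at day 8 and from -0.16 to 0.96 at day 29, and 45 and 44 of the 51 were above 0.

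**Figure D1:**
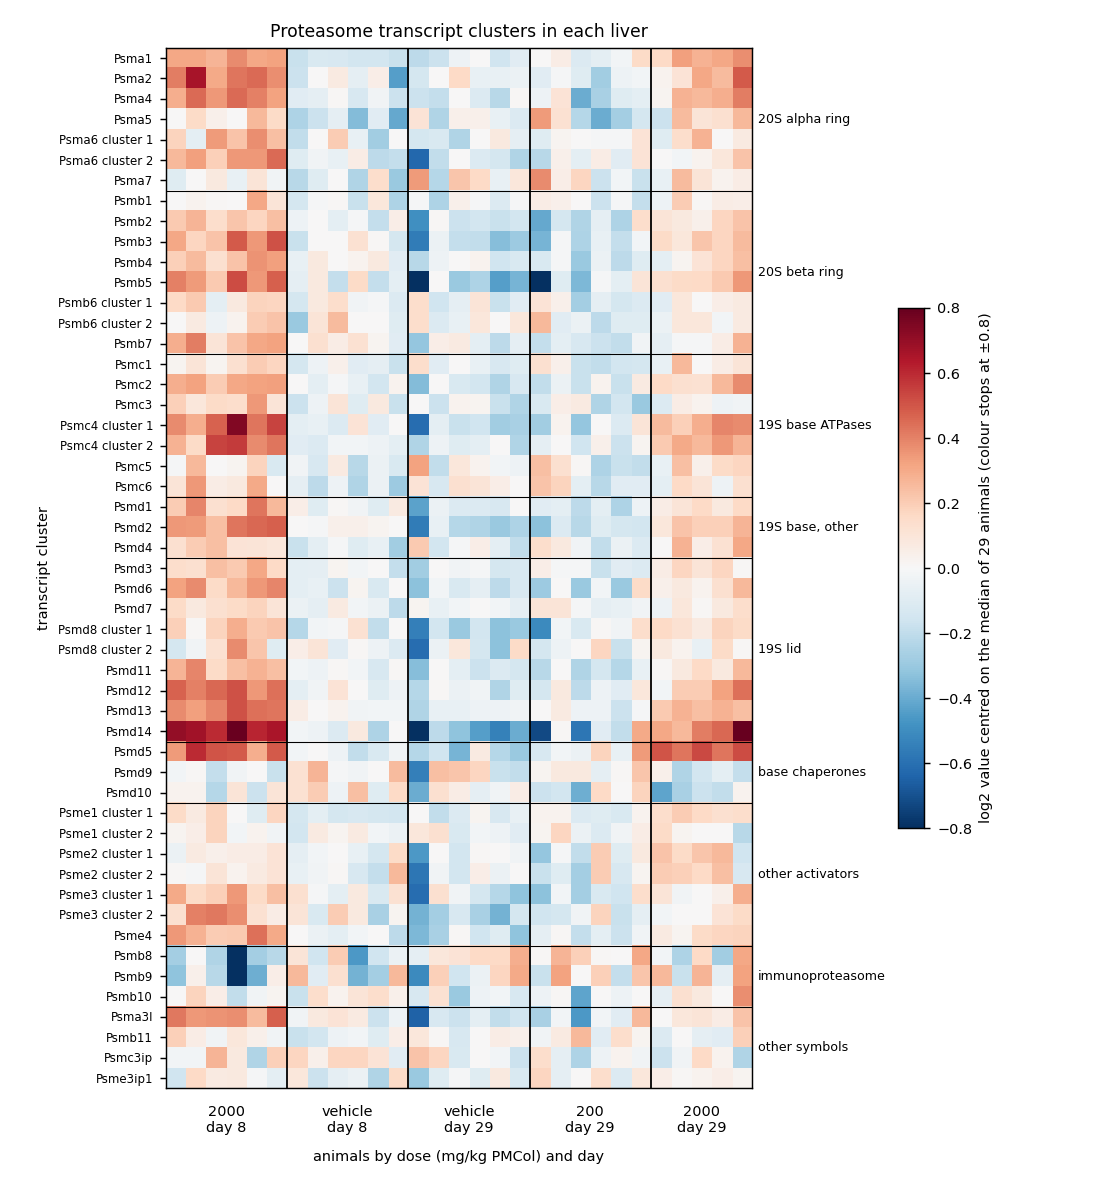
Centred log2 signal of the 51 proteasome clusters (rows, grouped by class) in the 29 animals (columns, grouped by dose and day). Red is above and blue below the cluster's median, and colours stop at 0.8 either way. The columns of both 2000 mg/kg groups are mostly red in the 20S and 19S rows. The 3 immunoproteasome rows do not follow them at day 8. At day 29 Psmb9 and Psmb10 differed from vehicle by 0.13 and 0.18, and Psmb8 by -0.14.

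In many of these genes the groups did not overlap. At day 8 all 6 animals given 2000 mg/kg lay above all 6 vehicle animals in 27 of the 51 clusters, a pattern that 5.84% of all clusters showed. At day 29 all 5 animals given 2000 mg/kg lay above all 6 vehicle animals in 21 clusters, against 6.43% of all clusters. The pattern was more common among clusters with stored values of 8 or more, in 1087 of 7783 at day 8 and 1058 at day 29. Of the 43 proteasome clusters in that class, 27 and 20 showed it. Of the 51, 25 rose on both days, 8 rose at day 8 only by this test, 2 at day 29 only and 16 on neither day. The 2 comparisons share no animals. Across the 51 clusters, which are not independent of each other, the differences at day 29 correlated with those at day 8 at r = 0.79 (Spearman's rho 0.80), and across all clusters at r = 0.74 (rho 0.53).

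**Figure D2:**
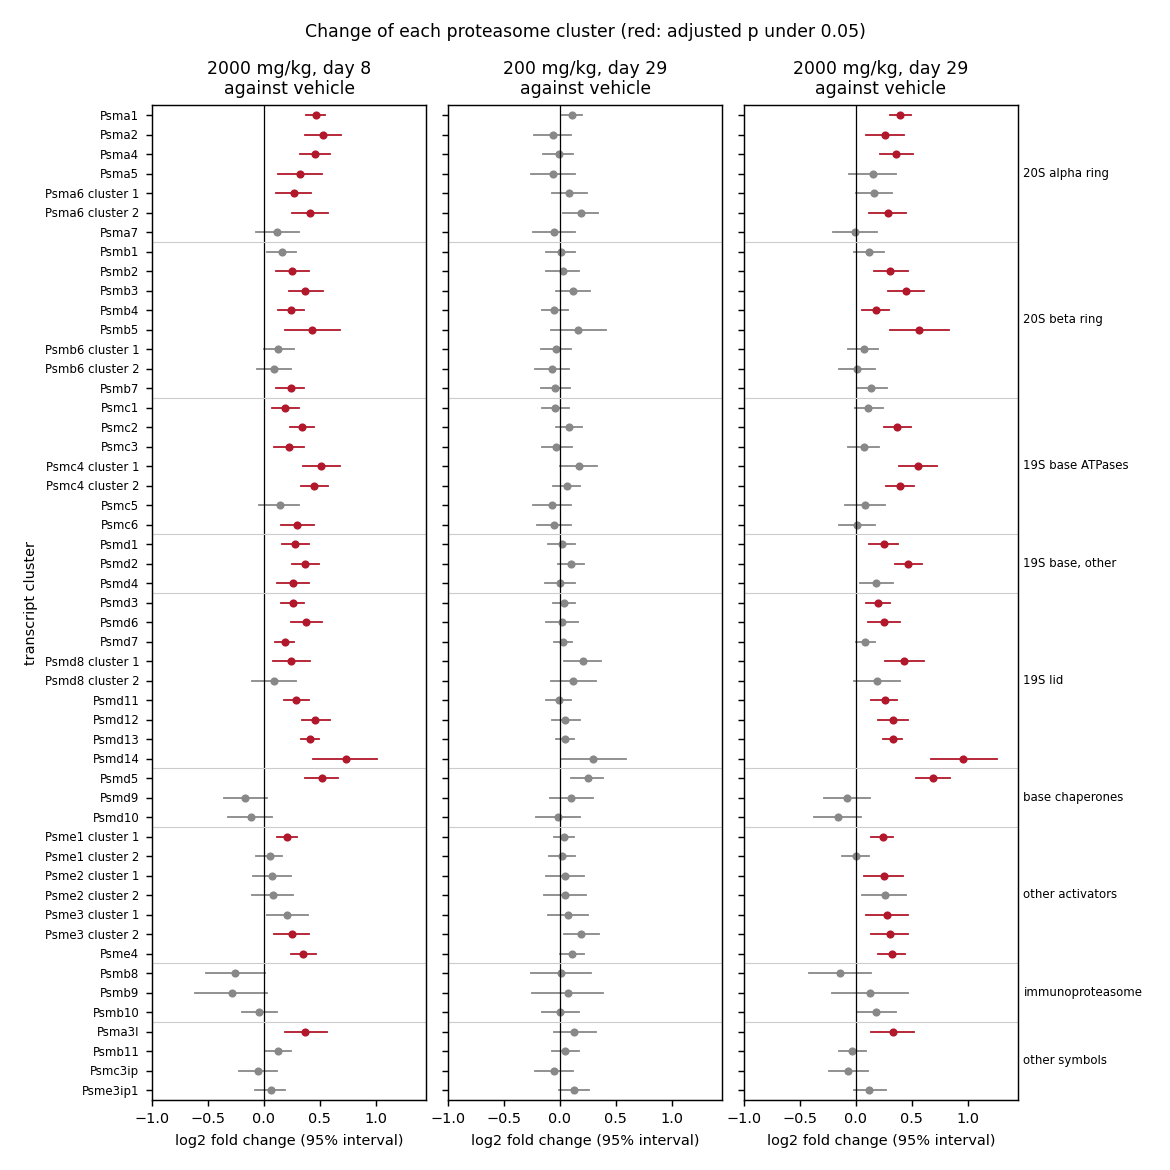
Difference of each proteasome cluster from vehicle (log2, point with 95% interval) at 2000 mg/kg day 8, 200 mg/kg day 29 and 2000 mg/kg day 29, by class. Red points passed an adjusted p of 0.05, which 33 did at 2000 mg/kg day 8, 27 at 2000 mg/kg day 29 and 0 at 200 mg/kg.

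The alpha subunits form the outer rings of the 20S core and the gate through which substrates enter. Of their 7 clusters, 6 rose at day 8 with a class median of 0.41, and 4 rose at day 29 with a median of 0.26. Psma2 had a lowest, median and highest signal of 0.30, 0.42 and 0.66 in livers given 2000 mg/kg at day 8, against -0.44, -0.03 and 0.07 in vehicle livers. The groups did not overlap, and the difference of 0.53 ± 0.08 (1.44-fold, limma adjusted p = 1.29e-05) was the largest of this ring at day 8. At day 29 Psma2 ranged from 0.03 to 0.49 in livers given 2000 mg/kg and from -0.14 to 0.16 in vehicle livers, which overlap, with a difference of 0.26 ± 0.08 (limma adjusted p = 0.0217). That call was lost without 2000 mg/kg replicate 3 or 5, without vehicle replicates 1 and 2 together and after quantile normalization, with adjusted p up to 0.0988. Psma1 had the least scatter. Its signals ran from 0.27 to 0.38 (median 0.31) in 2000 mg/kg livers at day 8, against -0.18 to -0.12 (median -0.15) in vehicle livers, a difference of 0.47 ± 0.04 (1.38-fold, limma adjusted p = 3.36e-09). At day 29 Psma1 ran from 0.16 to 0.37 (median 0.31) in 2000 mg/kg livers, against -0.21 to 0.00 (median -0.12) in vehicle livers, a difference of 0.40 ± 0.04 (1.32-fold, limma adjusted p = 1.2e-07). Psma4 rose by 0.46 and 0.36, and Psma6 cluster 2 by 0.41 and 0.29 at the 2 days. Psma5 and Psma6 cluster 1 rose at day 8 only, by 0.32 and 0.27. Psma7 was the only alpha subunit not called on either day, with differences of 0.12 and -0.01.

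The beta subunits form the inner rings, where the cutting takes place. Of their 8 clusters, 5 rose at day 8 (class median 0.24) and 4 at day 29 (0.16). Of the 3 catalytic genes, Psmb5 passed on both days, Psmb7 at day 8 only and Psmb6 on neither. Their changes were not tested against each other. Psmb5, the chymotrypsin-like catalytic subunit whose promoter is shown above, had signals of 0.21, 0.37 and 0.52 (lowest, median, highest) in 2000 mg/kg livers at day 8, against -0.19, -0.07 and 0.15 in vehicle livers. Its difference was 0.43 ± 0.12 (1.35-fold, limma adjusted p = 0.01), with no overlap. At day 29 its signals were 0.13, 0.15, 0.16, 0.21 and 0.35 in the 5 livers given 2000 mg/kg, against -0.88, -0.33 and 0.00 in vehicle livers. The groups were again apart, by 0.57 ± 0.13 (1.49-fold, limma adjusted p = 0.00117).

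Psmb7, the trypsin-like catalytic subunit, ran from 0.10 to 0.41 (median 0.30) in 2000 mg/kg livers at day 8, against -0.09 to 0.13 (median 0.04) in vehicle livers. It rose by 0.24 ± 0.06 (limma adjusted p = 0.00725), although the groups overlapped. At day 29 its mean was 0.05 ± 0.14 (SD, n = 5) in 2000 mg/kg livers and -0.09 ± 0.15 (SD, n = 6) in vehicle livers, and the difference of 0.14 ± 0.07 did not pass (limma adjusted p = 0.131). Psmb6, the caspase-like catalytic subunit, passed in neither of its clusters. Cluster 1 averaged 0.12 ± 0.11 in 2000 mg/kg livers and -0.01 ± 0.11 in vehicle livers at day 8 (SD, n = 6 each), with a difference of 0.13 ± 0.06 (limma adjusted p = 0.176), and differed by 0.07 ± 0.07 at day 29 (adjusted p = 0.565). Cluster 2 differed by 0.09 ± 0.07 at day 8 (limma adjusted p = 0.48) and by 0.01 ± 0.08 at day 29 (adjusted p = 0.95). Among the non-catalytic beta subunits, Psmb3 rose by 0.37 and 0.45, Psmb2 by 0.25 and 0.31, and Psmb4 by 0.24 and 0.18 at the 2 days. The day 29 call of Psmb4 was lost in 10 alternative settings (adjusted p up to 0.12). Psmb1 did not pass, with differences of 0.16 and 0.12.

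The 6 ATPases of the 19S base unfold the substrate and thread it into the core. Of their 7 clusters, 6 rose at day 8 (class median 0.30) and 3 at day 29 (0.11). Psmc4 cluster 1 changed most in this class at both days. Its signals were 0.29, 0.45 and 0.74 (lowest, median, highest) in 2000 mg/kg livers at day 8, against -0.11, -0.07 and 0.11 in vehicle livers, a difference of 0.51 ± 0.08 (1.43-fold, limma adjusted p = 2.49e-05). At day 29 they were 0.19, 0.25, 0.29, 0.38 and 0.39 in 2000 mg/kg livers, against -0.61, -0.22 and -0.08 in vehicle livers, a difference of 0.56 ± 0.08 (1.48-fold, limma adjusted p = 1.24e-05). Both comparisons were without overlap, and the other cluster of Psmc4 rose by 0.45 ± 0.06 and 0.40 ± 0.06. Psmc2 rose by 0.34 and 0.37. Psmc1, Psmc3 and Psmc6 rose at day 8 only, by 0.19, 0.22 and 0.30, and Psmc6 differed by 0.01 at day 29. Psmc5 did not pass, with differences of 0.14 and 0.08.

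The other base subunits hold the particle together and receive ubiquitinated substrates. All 3 rose at day 8 and 2 of them at day 29. Psmd2, a scaffold of the base, had signals of 0.24, 0.39 and 0.48 in 2000 mg/kg livers at day 8, against -0.01, 0.01 and 0.04 in vehicle livers (lowest, median, highest), a difference of 0.37 ± 0.06 (1.29-fold, limma adjusted p = 1.92e-05). At day 29 it had 0.09, 0.19, 0.19, 0.23 and 0.27 in 2000 mg/kg livers, against -0.56, -0.24 and -0.06 in vehicle livers, a difference of 0.47 ± 0.06 (1.38-fold, limma adjusted p = 1.08e-06). No animal of one group reached the other on either day. Psmd1, the second scaffold, rose by 0.28 and 0.25. Psmd4, a ubiquitin receptor, ran from 0.09 to 0.24 in 2000 mg/kg livers at day 8, against -0.28 to -0.01 in vehicle livers, and rose by 0.26 ± 0.07 (limma adjusted p = 0.00522). At day 29 its difference of 0.18 ± 0.07 did not pass (limma adjusted p = 0.059), and the groups overlapped.

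The lid removes the ubiquitin chain. Of its 9 clusters, 8 rose at day 8 (class median 0.29) and 7 at day 29 (0.26). Psmd14, the deubiquitinase of the lid, had the largest rise of all 51 clusters on both days. At day 8 its signals were 0.60, 0.66 and 0.79 (lowest, median, highest) in 2000 mg/kg livers, against -0.25, -0.03 and 0.08 in vehicle livers. The difference was 0.73 ± 0.14 (1.66-fold, limma adjusted p = 0.000308). At day 29 the 5 livers given 2000 mg/kg had 0.26, 0.31, 0.41, 0.46 and 0.80, against -1.17, -0.42 and -0.21 in vehicle livers, a difference of 0.96 ± 0.15 (1.95-fold, limma adjusted p = 1.38e-05). The groups did not overlap on either day, but the vehicle livers of day 29 were widely spread, and the lowest of them also had the lowest Psmb5. Psmd13 and Psmd12 rose by 0.41 and 0.46 at day 8 and by 0.33 each at day 29. Psmd6, Psmd11 and Psmd3 rose on both days, by 0.38, 0.29 and 0.26 at day 8 and by 0.25, 0.26 and 0.20 at day 29. Psmd8 cluster 1 rose by 0.24 and 0.43, but its day 8 call was lost without vehicle replicate 1 or 5 or 2000 mg/kg replicate 1, 3, 4, 5 or 6 (adjusted p up to 0.087). Its cluster 2 differed by 0.09 and 0.19 and passed on neither day. Psmd7, the inactive partner of Psmd14, rose at day 8 only, by 0.19.

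**Figure D3:**
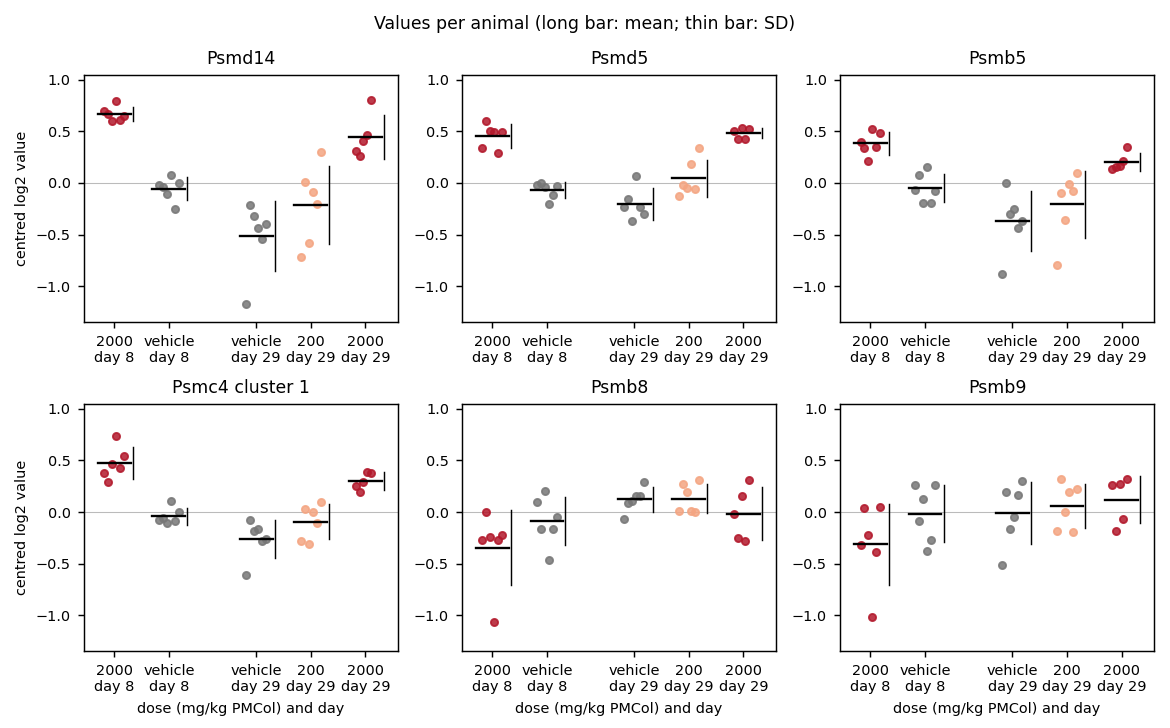
Centred log2 signal of Psmd14, Psmd5, Psmb5, Psmc4 cluster 1, Psmb8 and Psmb9 in each animal, by group; points are animals, the long bar is the group mean and the thin bar the SD. In Psmd14, Psmd5, Psmb5 and Psmc4 cluster 1 the 2000 mg/kg animals stand above the vehicle animals of the same day, and in Psmb8 and Psmb9 the groups overlap.

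The 3 chaperones of base assembly bind ATPases before the 19S particle is complete and are absent from the finished proteasome. Psmd5 was the only one that rose. Its signals were 0.29, 0.49 and 0.60 (lowest, median, highest) in 2000 mg/kg livers at day 8, against -0.20, -0.04 and 0.00 in vehicle livers, a difference of 0.52 ± 0.07 (1.43-fold, limma adjusted p = 3.71e-06). At day 29 they were 0.43, 0.43, 0.50, 0.52 and 0.53 in 2000 mg/kg livers, against -0.37, -0.23 and 0.07 in vehicle livers, a difference of 0.69 ± 0.07 (1.61-fold, limma adjusted p = 7.7e-08). The 5 treated livers thus lay within a narrow band, clear of every vehicle liver. Psmd9 differed by -0.17 and -0.08, and Psmd10, also known as gankyrin, by -0.12 and -0.16, and neither passed on either day.

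The activators open the gate of the core without ATP. Psme1 and Psme2 build PA28 alpha-beta, which interferon gamma raises, Psme3 builds the nuclear PA28 gamma, and Psme4 is PA200. Of the 7 activator clusters, 3 rose at day 8 and 5 at day 29. Psme4 had signals of 0.20, 0.29 and 0.44 in 2000 mg/kg livers at day 8, against -0.21, -0.03 and 0.00 in vehicle livers (lowest, median, highest), a difference of 0.35 ± 0.06 (1.28-fold, limma adjusted p = 2.45e-05). At day 29 it ran from 0.02 to 0.18 in 2000 mg/kg livers, against -0.36 to 0.01 in vehicle livers, a difference of 0.32 ± 0.06 (1.25-fold, limma adjusted p = 0.000153). Neither day showed overlap.

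The clusters of Psme1 disagreed. Cluster 1 ran between -0.10 and 0.18 in 2000 mg/kg livers at day 8, against -0.15 and -0.08 in vehicle livers, and rose by 0.21 ± 0.04 despite the overlap (limma adjusted p = 0.000798). At day 29 it rose by 0.24 ± 0.05 (limma adjusted p = 0.000354) without overlap. Cluster 2 of Psme1 differed by 0.05 ± 0.06 and 0.00 (limma adjusted p = 0.645 and 0.996). Clusters of 1 symbol can cover different exons or share probes with near-identical copies, so such differences are uncertain. In Psme1, Psmd8 and Psme3, cluster 1 had stored values of 8 or more and cluster 2 did not. Cluster 2 of Psme3 rose on both days, and cluster 2 of Psme1 and of Psmd8 on neither. The part of signal level in these differences was not tested. Psme2 cluster 1 differed by 0.07 ± 0.08 at day 8 (limma adjusted p = 0.625) and rose by 0.25 ± 0.09 at day 29 (adjusted p = 0.0386), where 2000 mg/kg livers ran from -0.16 to 0.26 and vehicle livers from -0.46 to 0.01. Its cluster 2 had a similar difference of 0.26 ± 0.09 at day 29 that did not pass (limma adjusted p = 0.0502), after 0.08 ± 0.09 at day 8 (adjusted p = 0.642). It passed at day 29 in 8 alternative settings, with adjusted p down to 0.0175. Psme3 cluster 2 rose by 0.25 ± 0.08 at day 8 (limma adjusted p = 0.0223) and by 0.31 ± 0.08 at day 29 (adjusted p = 0.00561). Psme3 cluster 1 differed by 0.21 ± 0.09 at day 8 (limma adjusted p = 0.109) and rose by 0.28 ± 0.09 at day 29 (adjusted p = 0.0326). The day 29 calls of Psme2 cluster 1 and Psme3 cluster 1 were lost in 9 and 7 of the alternative settings, with adjusted p up to 0.126 and 0.118, and the day 8 call of Psme3 cluster 2 in 6 (up to 0.0748).

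The mean over the clusters of a class, taken in each animal, shows the core and the regulatory particle together. The 15 core clusters averaged 0.23 ± 0.05 in 2000 mg/kg livers and -0.07 ± 0.07 in vehicle livers at day 8 (SD, n = 6 each). At day 29 they averaged 0.13 ± 0.08 in 2000 mg/kg livers (SD, n = 5) and -0.11 ± 0.06 in vehicle livers (SD, n = 6). The 19 regulatory clusters averaged 0.27 ± 0.04 in 2000 mg/kg livers and -0.05 ± 0.03 in vehicle livers at day 8, and 0.16 ± 0.06 in 2000 mg/kg livers and -0.14 ± 0.08 in vehicle livers at day 29. In both classes, and on both days, every 2000 mg/kg liver lay above every vehicle liver. The median differences were 0.27 in the core and 0.29 in the regulatory particle at day 8, and 0.18 and 0.25 at day 29. The 3 immunoproteasome clusters averaged -0.22 ± 0.29 in 2000 mg/kg livers and -0.02 ± 0.14 in vehicle livers at day 8, and 0.07 ± 0.19 and 0.01 ± 0.16 at day 29 in 2000 mg/kg and vehicle livers, and overlapped on both days. Of the 2000 mg/kg livers at day 8, replicate 4 had an immunoproteasome mean of -0.76, and the other 5 ran from -0.23 to 0.08.

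**Figure D4:**
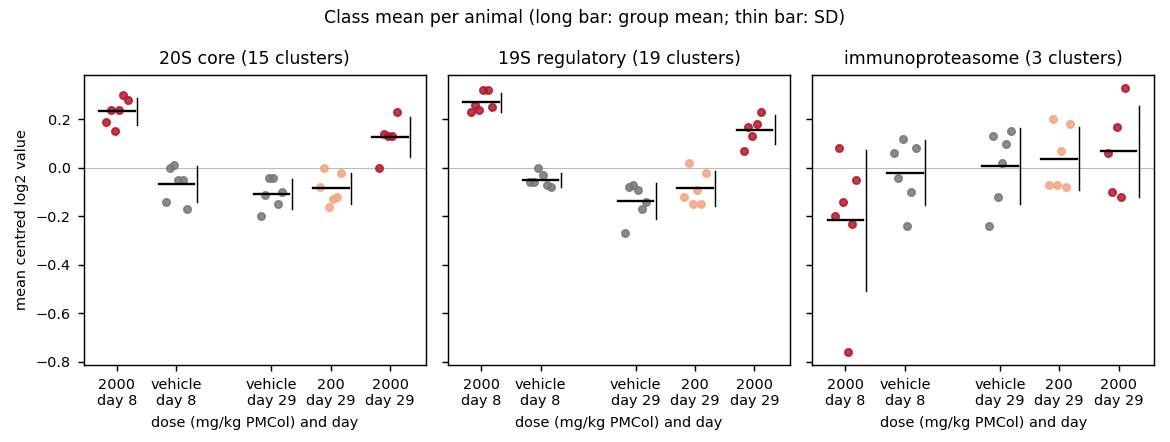
Mean centred log2 signal of the 20S core (15 clusters), the 19S regulatory particle (19) and the immunoproteasome (3) in each animal, by group; the long bar is the group mean and the thin bar the SD. The core and regulatory means of 2000 mg/kg livers do not overlap those of vehicle livers on either day, and the immunoproteasome means overlap in all groups.

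None of the 3 immunoproteasome genes passed in any comparison. Psmb9 and Psmb10 had stored values of 8 or more, and Psmb8 did not. At an unadjusted p under 0.05 in limma, 0 of the 3 were called at day 8, where 14.1% of all clusters were higher and 14.7% lower. At day 29 only Psmb10 was (higher, unadjusted p = 0.0368 from limma), where 17.4% of all clusters were higher. Psmb8, which replaces Psmb5, had signals of -1.06, -0.26 and 0.00 (lowest, median, highest) in 2000 mg/kg livers at day 8, against -0.46, -0.11 and 0.20 in vehicle livers. The difference was -0.26 ± 0.13 (95% interval -0.52 to 0.01, limma adjusted p = 0.197), and -0.11 without replicate 4, the lowest treated liver. At day 29 the signals were -0.28, -0.25, -0.02, 0.16 and 0.31 in 2000 mg/kg livers, against -0.07, 0.13 and 0.29 in vehicle livers, and the difference was -0.14 ± 0.14 (-0.42 to 0.14, limma adjusted p = 0.539). The groups overlapped on both days. Psmb9, which replaces Psmb6, had -1.02, -0.27 and 0.05 in 2000 mg/kg livers at day 8, against -0.38, 0.02 and 0.26 in vehicle livers, a difference of -0.29 ± 0.16 (-0.62 to 0.03, limma adjusted p = 0.225), and -0.15 without replicate 4, the lowest treated liver. At day 29 it had -0.18, -0.07, 0.26, 0.27 and 0.32 in 2000 mg/kg livers, against -0.51, 0.06 and 0.30 in vehicle livers, a difference of 0.13 ± 0.17 (-0.21 to 0.47, limma adjusted p = 0.65). The interval of Psmb9 held the median difference of the core clusters at day 29 and lay below it at day 8. Psmb10, which replaces Psmb7, ran from -0.20 to 0.18 in 2000 mg/kg livers at day 8 and from -0.18 to 0.14 in vehicle livers, a difference of -0.04 ± 0.08 (-0.20 to 0.12, limma adjusted p = 0.802). At day 29 it had -0.07, 0.00, 0.08, 0.13 and 0.37 in 2000 mg/kg livers, against -0.30, -0.08 and 0.12 in vehicle livers, a difference of 0.18 ± 0.08 (0.01 to 0.36, limma adjusted p = 0.125).

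Each inducible subunit was then set against the constitutive one it replaces, as the difference of their 2 signals in each animal. These 15 tests (3 pairs in 5 comparisons) were two-sided exact permutation tests over animals, adjusted by Benjamini-Hochberg over the 15, and the smallest p they can give is 0.00216. Psmb8 minus Psmb5 was -1.58, -0.65 and -0.34 (lowest, median, highest) in 2000 mg/kg livers at day 8, against -0.61, 0.03 and 0.39 in vehicle livers. The shift was -0.69 (exact permutation p = 0.00866, adjusted 0.0325), with 6 of 6 treated livers below the vehicle mean and some overlap. The call was lost without vehicle replicate 1, 3, 5 or 6 (adjusted p up to 0.0584) and after quantile normalization (0.0649). At day 29 the difference ran from -0.50 to 0.00 (median -0.15) in 2000 mg/kg livers, against 0.09 to 0.80 (median 0.51) in vehicle livers. The shift was -0.71 (exact permutation p = 0.00433, adjusted 0.0325), with 5 of 5 below and no overlap. Both the rise of Psmb5 and the sign of Psmb8 enter this value, and Psmb8 alone did not pass. Psmb10 minus Psmb7 averaged -0.27 ± 0.13 in 2000 mg/kg livers and 0.00 ± 0.11 in vehicle livers at day 8 (SD, n = 6 each), a shift of -0.28 in 6 of 6 livers (exact permutation p = 0.00433, adjusted 0.0325). Most of this shift lay in Psmb7, which rose by 0.24, while Psmb10 itself differed by -0.04. At day 29 Psmb10 minus Psmb7 shifted by 0.04 (exact permutation adjusted p = 0.988). Psmb9 minus Psmb6 cluster 1 shifted by -0.43 at day 8 in 6 of 6 livers, which did not pass (exact permutation p = 0.0606, adjusted 0.152), and by 0.07 at day 29 (adjusted p = 0.988).

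**Figure D5:**
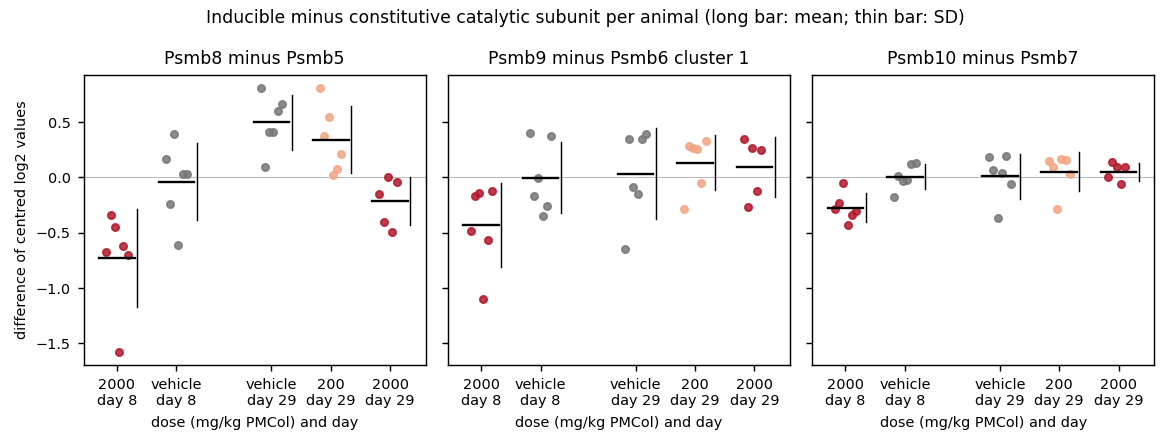
Difference of log2 signals between each inducible catalytic subunit and the constitutive one it replaces, in each animal, by group; the long bar is the group mean and the thin bar the SD. Psmb8 minus Psmb5 lies lower in 2000 mg/kg livers on both days, Psmb10 minus Psmb7 at day 8, and Psmb9 minus Psmb6 cluster 1 overlaps throughout.

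Immune cells carry much of the immunoproteasome, and their markers differed between 2000 mg/kg and vehicle livers at day 8. In bulk liver RNA, fewer cells of a type and less RNA per cell cannot be told apart. At day 8, where 9.32% of all clusters fell, 10 of 11 macrophage markers measured fell and 1 rose (Cd14, by 0.54), and their mean was -0.09 ± 0.24 in 2000 mg/kg livers (range -0.56 to 0.09) and 0.74 ± 0.30 in vehicle livers (0.32 to 1.14). Of 5 general leukocyte markers, 4 fell, with means from -0.54 to -0.04 in 2000 mg/kg livers and from 0.23 to 0.59 in vehicle livers. Of 12 lymphocyte markers, 6 fell (Cd4, Cd8a, Cd79b, Nkg7, Prf1 and Gzma), while Cd3e, Cd3d, Cd3g, Cd2, Ms4a1 and Klrd1 did not pass. The largest of these falls was that of Cd4, by 0.87, and Cd4 also fell between vehicle livers, by 1.03. Means of the 12 ran from -0.25 to 0.01 and from 0.07 to 0.28 in 2000 mg/kg and vehicle livers, and 0 of the 12 had stored values of 8 or more. At day 29 no leukocyte or lymphocyte marker fell by limma's adjusted p at 2000 mg/kg (2 of 5 and 1 of 12 were lower at an unadjusted p under 0.05, against 14.7% of all clusters), and 1 macrophage marker rose. Between vehicle livers, 10 of the 11 macrophage markers fell at day 29, with means of -0.22 ± 0.46 at day 29 and 0.74 ± 0.30 at day 8. The macrophage means at day 29 were -0.18 ± 0.5 at 2000 mg/kg and -0.13 ± 0.41 at 200 mg/kg. The day 8 vehicle livers thus stood apart from the other groups, and day 8 livers given 2000 mg/kg were near all day 29 groups. The part of these cells in the values of Psmb8, Psmb9 and Psmb10 was not tested.

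At day 29 the proteasome genes were higher at 2000 than at 200 mg/kg. No proteasome cluster rose or fell at 200 mg/kg by limma (background 1.37% rises and 1.42% falls), and at an unadjusted p under 0.05 there were 7 higher and 0 lower (6.87% and 6.82% of all clusters). The 7 were Psma1, Psma6 cluster 2, Psmc4 cluster 1, Psmd5, Psmd8 cluster 1, Psmd14 and Psme3 cluster 2. The median difference between 200 mg/kg and vehicle livers was 0.04 (1.03-fold), with 36 of 51 above 0. Between 2000 and 200 mg/kg livers, 21 clusters rose and 0 fell (41.2%), against 6.05% rises and 3.84% falls among all clusters and 12.5% rises among those with stored values of 8 or more, with a median of 0.20 (1.15-fold). In 14 of the 51 every 2000 mg/kg liver lay above every 200 mg/kg liver, against 3.62% of all clusters. Among clusters with stored values of 8 or more this held in 589 of 7783, and in 14 of the 43 proteasome clusters. These 3 day 29 comparisons share animals, so their counts are not independent. The means stood in the ascending order vehicle, 200 and 2000 mg/kg in 31 of the 51 clusters, and in 7472 of all 27342.

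Single genes show the steps. Psmd5 averaged -0.20 ± 0.15 in vehicle livers, 0.04 ± 0.18 at 200 mg/kg and 0.48 ± 0.05 at 2000 mg/kg. The step of 0.25 ± 0.07 at 200 mg/kg came closest to passing (limma adjusted p = 0.054, and down to 0.012 in the 5 alternative settings that called it), and the step of 0.44 ± 0.07 between 2000 and 200 mg/kg passed (adjusted p = 0.000197) without overlap. Psmd14 averaged -0.51 ± 0.34 in vehicle livers, -0.21 ± 0.38 at 200 mg/kg and 0.45 ± 0.21 at 2000 mg/kg, and its steps were 0.30 ± 0.14 (limma adjusted p = 0.321) and 0.66 ± 0.15 (adjusted p = 0.00313). The 200 and 2000 mg/kg livers overlapped here. Psmb5 averaged -0.37 ± 0.29, -0.21 ± 0.33 and 0.20 ± 0.09 at the 3 doses, with steps of 0.16 ± 0.12 (limma adjusted p = 0.632) and 0.41 ± 0.13 (adjusted p = 0.0364), the last of which was lost in 7 alternative settings (up to 0.107). Psmd2 averaged -0.27 ± 0.16 in vehicle livers, -0.17 ± 0.09 at 200 mg/kg and 0.19 ± 0.06 at 2000 mg/kg. Its steps were 0.10 ± 0.06 (limma adjusted p = 0.465) and 0.37 ± 0.06 (adjusted p = 0.000115). By class mean, regulatory clusters averaged -0.14 ± 0.08, -0.08 ± 0.07 and 0.16 ± 0.06, and core clusters -0.11 ± 0.06, -0.08 ± 0.06 and 0.13 ± 0.08, at vehicle, 200 and 2000 mg/kg. The 2000 and 200 mg/kg livers were apart in the regulatory mean and overlapped in the core mean. Psmb8 minus Psmb5 was lower by 0.56 at 2000 than at 200 mg/kg (exact permutation p = 0.00649, adjusted 0.0325), a call lost without 2000 mg/kg replicate 4 (adjusted p = 0.0571). Its shift between 200 mg/kg and vehicle livers was -0.16 (adjusted p = 0.742). Most of the shift between 2000 and 200 mg/kg lay in Psmb5, while Psmb8 itself differed by -0.15 ± 0.14 (limma adjusted p = 0.586).

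Whether the response differed between the days was tested as an interaction, the day 29 difference minus the day 8 difference. No proteasome cluster passed (background 0.472% and 0.304%), and at an unadjusted p under 0.05 limma had 0 higher and 2 lower (8.62% and 6.08% of all clusters). Those 2 were Psmc6, at -0.29 ± 0.11 (limma adjusted p = 0.195), and Psma2, at -0.27 ± 0.11 (adjusted p = 0.275). The clusters that rose on 1 day only are therefore not shown to differ between days. The interaction of Psmb9 was 0.42 ± 0.23 (limma adjusted p = 0.399). The median interaction over the 51 was -0.04, and 20 of them had the larger difference at day 29.

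In vehicle livers the proteasome clusters tended to be lower at day 29 than at day 8. The difference was below 0 in 35 of the 51, and in 13238 of all 27342 clusters. Clusters with stored values of 8 or more leaned the same way, with 4348 of 7783 below 0, and 30 of the 43 proteasome clusters among them. At an unadjusted p under 0.05 in limma, 1420 of these 7783 and 14 of these 43 were lower. Between day 29 and day 8, 1 of the 51 clusters fell and 0 rose (background 1.77% falls and 0.962% rises), and at an unadjusted p under 0.05 there were 2 higher and 15 lower (8.13% and 10.1% of all clusters). The 1 was Psmd2, with -0.56, -0.24 and -0.06 (lowest, median, highest) in day 29 vehicle livers, against -0.01, 0.01 and 0.04 in day 8 vehicle livers. The groups were apart by -0.29 ± 0.06 (limma adjusted p = 0.00959). Psmd14 had a difference of -0.46 ± 0.14 that did not pass (limma adjusted p = 0.068). The median over the members was -0.08, against 0.003 over all clusters and -0.022 over those with stored values of 8 or more. Psmb8 minus Psmb5 was higher by 0.53 in day 29 than in day 8 vehicle livers (0.49 ± 0.25 and -0.04 ± 0.35, SD, n = 6 each; exact permutation p = 0.0108, adjusted 0.0325). That call was lost in 9 of the 12 fits that left out 1 animal (adjusted p up to 0.0584). More of this shift lay in Psmb5, which differed by -0.32 ± 0.12, than in Psmb8, which differed by 0.21 ± 0.13. Neither gene passed alone between vehicle livers (limma adjusted p = 0.135 and 0.409). The count of falls was 0 in the fit of only the animals compared, which ends the call of Psmd2, and 7 without day 29 replicate 2.

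Within groups, animals that were high in one subunit tended to be high in others. After each group's mean was taken off, the median correlation over the 29 animals was 0.28 between pairs of core clusters, 0.25 between pairs of regulatory clusters and 0.27 between a core and a regulatory cluster. Between pairs of all clusters it was 0.01, and 0.069 between those with stored values of 8 or more. Pairs of a core and an immunoproteasome cluster had a median of 0.10, as did pairs of a regulatory and an immunoproteasome cluster. All pairs share the same 29 arrays and their normalization, so these medians are given as a description. Psmb4 (0.83), Psma1 (0.81), Psmd12 (0.75) and Psmb7 (0.73) followed the mean of the other core and regulatory clusters most closely, while Psma7 (-0.09) and Psmc5 (-0.01), both not called on either day, did not follow it.

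Single pairs were tested by permuting animals within groups, 39 relations in all. The genes and relations were chosen after values were seen, so these p-values serve as a description only. Psmb8 and Psmb9 had r = 0.84 and rho = 0.80 (n = 29 animals, permutation p = 1e-05 for both, the smallest these permutations can give, adjusted 0.00039 for both), and r = 0.75 without the 2 animals farthest from the median of Psmb8. In the RefSeq gene order both stand beside Tap1, the peptide transporter of antigen presentation, in the order Tap2, Psmb8, Tap1, Psmb9. Tap2, the partner of Tap1, had r = -0.05 with Psmb8 and 0.03 with Psmb9 (rho = -0.07 and -0.03, permutation adjusted p for r 0.832 and 0.889). Psmb9 and Tap1 had r = 0.64 and rho = 0.63 (permutation p = 0.00077 and 0.00076, adjusted 0.00751 and 0.0118; r = 0.56 without the 2 farthest animals). Psmb10, which lies on another chromosome, had r = 0.27 and rho = 0.12 with Psmb8 (permutation p = 0.172 and 0.565, adjusted 0.231 and 0.667; 0.16 without the 2). Psmb10 and the mean of the leukocyte markers had r = 0.73 and rho = 0.61 (permutation p = 0.00025 and 0.00105, adjusted 0.00487 and 0.0118; 0.65 without the 2). Its correlation with the macrophage mean was r = 0.69 and rho = 0.60 (permutation p = 0.0004 and 0.00121, adjusted 0.0052 and 0.0118; 0.60 without the 2). Such correlations were not particular to Psmb10, but those of Psmb8 did not pass. Psmb8 had r = 0.47 with the leukocyte mean and 0.34 with the macrophage mean (permutation adjusted p = 0.0615 and 0.112). Psmb9 had r = 0.55 with the leukocyte mean and 0.51 with the macrophage mean (permutation adjusted p = 0.025 and 0.0281; rho = 0.49 and 0.48, adjusted 0.0419 for both; r = 0.43 and 0.42 without the 2). The lid gene Psmd14 had r = 0.48 and 0.56 (permutation adjusted p = 0.0477 and 0.0451; rho = 0.47 and 0.51, adjusted 0.0507 and 0.0435; r = 0.57 for both without the 2).

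Other genes of the pathway moved in part with the subunits. Of 14 genes measured for ubiquitin supply, delivery and editing, 11 rose and 0 fell on each day at 2000 mg/kg, with medians of 0.35 and 0.34. All 14 had stored values of 8 or more, a class in which 19.9% rose at day 8 and 23.8% at day 29. Usp14, a deubiquitinase that docks on the 19S base, rose by 0.66 ± 0.07 and 0.64 ± 0.07 (limma adjusted p = 5.06e-08 and 1.86e-07). Ubqln2, a shuttle that carries ubiquitinated proteins to the proteasome, rose by 0.65 and 0.61. Zfand2a, which binds the proteasome under arsenite stress, had the largest rise of this list, 1.26 ± 0.17 at day 8 and 0.85 ± 0.18 at day 29 (limma adjusted p = 3.94e-06 and 0.00087). Txnl1, a thioredoxin bound to the 19S particle, rose by 0.58 and 0.38, and Sqstm1, an autophagy receptor for ubiquitinated cargo, by 0.47 and 0.36. None of the 14 passed at 200 mg/kg, where limma had 2 higher and 0 lower at an unadjusted p under 0.05 (6.87% and 6.82% of all clusters). The mean over the 14 was 0.31 ± 0.03 in 2000 mg/kg livers and -0.10 ± 0.06 in vehicle livers at day 8, and 0.21 ± 0.08 and -0.14 ± 0.09 in 2000 mg/kg and vehicle livers at day 29.

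Among 10 known regulators of subunit genes, 3 rose and 2 fell at day 8, and 2 rose and 1 fell at day 29. Among all clusters with stored values of 8 or more, the class of 9 of these 10, 19.9% rose at day 8 and 23.8% at day 29, so these counts are near the background. Nfe2l1, which encodes NRF1, rose by 0.23 ± 0.04 at day 8 and by 0.34 ± 0.05 at day 29 (limma adjusted p = 0.000376 and 2.49e-06). Ddi2, the protease that activates NRF1, fell by 0.18 and by 0.39. Keap1, the adaptor that marks NRF2 for degradation, rose by 0.37 ± 0.04 and 0.57 ± 0.04 (limma adjusted p = 1e-07 and 6.87e-11), and by 0.17 at 200 mg/kg (adjusted p = 0.0214). Nfe2l2 itself differed by 0.03 and 0.10 and did not pass (limma adjusted p = 0.914 and 0.652). Hsf2, a heat shock factor, rose by 0.30 at day 8, where Mafg, a small Maf partner of NRF1 and NRF2, fell by 0.20.

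Of 7 other proteasome-related genes measured, 2 rose at day 8, and 2 rose and 1 fell at day 29. They were the subunits Adrm1 and Sem1, and Pomp, Psmg1, Psmg2, Psmg4 and Akirin2, with no inhibitor among them. Adrm1 gave 1 of the rises on each day, and Sem1 gave the fall. The class with stored values of 8 or more, with the same 19.9% and 23.8% of rises, holds 6 of these 7, so these counts too are near the background. Adrm1, a ubiquitin receptor of the base, rose by 0.38 ± 0.05 and 0.42 ± 0.05 (limma adjusted p = 1.96e-06 and 1.01e-06). Psmg1 and Psmg2, the paired chaperones of the alpha ring, rose on 1 day each, Psmg1 by 0.17 at day 8 and Psmg2 by 0.35 at day 29. Sem1, a small subunit of the lid, went against the other lid genes. It fell by 1.09 ± 0.20 at day 29 (limma adjusted p = 0.000145), after a difference of -0.37 ± 0.19 at day 8 (adjusted p = 0.192), and was higher by 0.81 ± 0.19 in day 29 than in day 8 vehicle livers (adjusted p = 0.0219). Pomp, the maturation factor of the core, differed by -0.11 and -0.21 and did not pass. Of 7 antigen-processing genes measured, 1 fell at day 8 (9.32% of all clusters), Irf1, the interferon regulatory factor (-0.62 ± 0.14, limma adjusted p = 0.00234), and 2 rose at day 29 (12.1% of all clusters). Those 2 were Tapbp, which loads peptides on MHC class I (0.23 ± 0.05), and Erap1, which trims them (0.27 ± 0.09). Tap1 differed by -0.23 ± 0.09 and 0.25 ± 0.10 (limma adjusted p = 0.0885 and 0.0663). Irf1, which did not have stored values of 8 or more, differed by 0.32 ± 0.15 at day 29 (limma adjusted p = 0.145). Its interaction of dose and day, 0.94 ± 0.21, passed (limma adjusted p = 0.0324), and it rose by 0.59 ± 0.15 against 200 mg/kg (adjusted p = 0.0109).

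Of the 4 clusters outside the classes above, Psma3l rose by 0.37 ± 0.09 at day 8 and 0.33 ± 0.09 at day 29 (limma adjusted p = 0.00314 and 0.0111), with means of 0.37 ± 0.08 and 0.00 ± 0.11 in 2000 mg/kg and vehicle livers at day 8. Its sequence is so close to that of Psma3 that its probes may read both. Psmb11 differed by 0.13 and -0.03, Psmc3ip by -0.05 and -0.07, and Psme3ip1 by 0.06 and 0.12, and none of these passed.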

How the data were processed

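A whole-transcript Affymetrix array was hybridised with the liver RNA of each of 29 rats. The values are log2 signals as deposited by the authors, for 27342 transcript clusters, each centred on a median of 0. PLIER and MAS5 are named, with no version, per the submitters' processing notes. No source used here gives the normalization between arrays, the centring step or any offset. Batches were not tested, since slide and scan date were not used. The number of columns left unused was 0. Stored values of 8 or more were read from the rounding grid of the decimals, so they are a rough class of signal and not a level.

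Members were matched on the platform annotation, in which 15097 clusters have 1 gene symbol; 50 of the 51 members had a gene identifier in the RefSeq gene table (GRCr8), and 0 symbols differed there. The members, classes and gene lists were chosen with earlier results of these data known. The named-genes rule gives full values for Psmb5, Psmb6, Psmb7, Psmb8, Psmb9, Psmb10, Psmd4, Psmd14 and Psme1 to Psme4, and for the largest called rise of each class in each comparison with vehicle. All other members are given by single values. The genes and relations of the correlation tests were chosen after values were seen.

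The fit was limma 3.58.1 in R 4.3.3 on the 5 groups (29 animals), moderated by empirical Bayes, with Benjamini-Hochberg adjustment at 0.05 over all clusters. It was tested on simulated data. P-values are two-sided, and ± is the standard error after a difference and the SD after a group mean. Pair differences used exact permutation tests of 924 splits (6 against 6) or 462 (5 against 6), and correlations 100000 permutations within groups. Python 3.11.15, pandas 2.3.3, numpy 2.4.6, scipy 1.17.1 and matplotlib 3.10.9 were used. Alternatives were median centring, quantile normalization, clusters with 1 symbol or with stored values of 8 or more only, fits of the animals compared only, a trended robust fit, array weights, a threshold of 0.01, a replicate block, and leaving out each animal. Samples with the same replicate number did not deviate together (correlations -0.282 to 0.295, above 0.1 in 12 of 56 pairs), so the numbers were not taken as pairs.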

Additional observations from a re-analysis of the deposited data

Results flagged for a closer look

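In 12 of the 110 groups examined (22 named clusters in 5 groups), 1 animal stood far from the rest of its group, and chance flags about 1 in 20 groups. In the vehicle livers of day 29, replicate 1 was the lowest in Psmd14 (-1.17), Psma3l (-0.65), Psme2 cluster 1 (-0.46) and Psme2 cluster 2 (-0.58). In the 2000 mg/kg livers of day 29, replicate 5 was the lowest in Psme2 cluster 1 (-0.16) and cluster 2 (-0.13). In the 2000 mg/kg livers of day 8, replicate 4 was the lowest in Psmb8 (-1.06). In the 200 mg/kg livers, replicate 4 was low in Psma2 (-0.28), replicate 3 was low in Psmb10 (-0.42), and replicate 1 was high in Psmb6 cluster 2 (0.26). In the vehicle livers of day 8, replicate 1 was low in Psmb10 (-0.18), and replicate 2 was high in Psme1 cluster 1 (-0.08). No interaction of dose and day passed for a named cluster.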

How the results depend on the processing

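Counts of rises at 2000 mg/kg moved little when 1 animal was left out, between 31 and 33 at day 8 and between 25 and 28 at day 29, where it was 25 without vehicle replicate 1. Under quantile normalization, and in the fit of only the animals compared, the count was 33 at day 8 and 23 at day 29. At a threshold of 0.01 it was 25 at day 8 and 21 at day 29. Against 200 mg/kg the count ran from 16 to 21 when 1 animal was left out. It was 15 in the fit of only the animals compared and 13 at a threshold of 0.01. At 200 mg/kg it was 1 among clusters with 1 symbol, 1 among those with stored values of 8 or more and 1 with array weights, and 0 to 2 when 1 animal was left out (2 without 200 mg/kg replicate 1, 1 without vehicle replicate 4). Falls between vehicle livers numbered 2, 3 and 4 under the same 3 settings, 0 in the fit of only the animals compared, and 1 to 7 when 1 animal was left out (7 without day 29 replicate 2, 2 without day 8 replicate 5). With the replicate block the rises at 2000 mg/kg were 33 and 28, those against 200 mg/kg 21, and the falls between vehicle livers 2; the block moved no other count of calls. The shift of Psmb8 minus Psmb5 became -0.59 at day 8 and 0.48 between vehicle livers under quantile normalization (adjusted p = 0.0649 for both, exact permutation). With 1 animal left out it ran from -0.80 to -0.52 at day 8, from -0.62 to -0.46 against 200 mg/kg and from 0.42 to 0.62 between vehicle livers. At day 29 it ran from -0.79 to -0.64 and kept its call. Of 1748 recomputed values of the 22 named clusters, 1689 kept their direction and their side of the threshold, called or not, 37 lost a call, 22 gained one and 0 reversed. Among the other members, Psmd3 and Psmd6 lost their calls against 200 mg/kg in 12 and 8 settings. The causes of these changes were not tested. The number of arrays limits the precision, and signal over background could not be read from centred values.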
